A study of Ovis aries with 7 samples.

Results

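KITLG, also called stem cell factor or KIT ligand, is 1 of 954 genes that could be named on the array, and was followed array by array in the hypothalamus of late-gestation fetal sheep. Its probes were taken as all non-control probes that the array files name KITLG in their gene name or description, and 4 of 15008 probes met that rule. Only 2 of the 4 carry the accession of a KITLG sequence. The other 2 carry a transcript accession that RefSeq now gives to STAT5A, and they are described under that name. KITLG was chosen by a measured value of these same arrays: of 829 named genes tested, it had the smallest p-value for hypoxia against control. So its difference is given as a description and no test is attached to it.

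All 7 fetuses were near the end of gestation and carried catheters placed some time before. In the 3 hypoxia fetuses the gas that the ewe inhaled was low in oxygen for 30 min, and 30 min of recovery at normal oxygen followed. The 4 control fetuses, matched for age, had normal oxygen over both periods of 30 min. The whole hypothalamus was collected 60 min after onset in each group, and its RNA was labelled with Cy3 and hybridised to 1-colour Agilent sheep arrays, 1 array per fetus. The labels give no strain, sex or exact gestational age.

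KITLG is made as a transmembrane protein that can act on a touching cell or be cut by proteases into a soluble factor. It binds KIT, a receptor tyrosine kinase, which passes the signal through PI3K and AKT, RAS and MAP kinases, and JAK and STAT proteins. The pair is best known for keeping blood stem cells, mast cells, melanocytes and germ cells alive, and both ligand and receptor are also made in the brain, where neurons and endothelial cells are among the known sources of the ligand.

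The sequences of the 2 KITLG probes are shown because they are what the KITLG values rest on. That they measure KITLG rests on the gene name and description in the array files, since their accession is not in the RefSeq table used here. Both are 60 bases long and, by those files, lie on the ovine stem cell factor sequence U89874, at bases 639 to 698 for the first and 679 to 738 for the second. Capitals mark the 20 bases that both probes hold, so they are neighbours on 1 transcript and not independent measures of different parts of it.
A_70_P017022: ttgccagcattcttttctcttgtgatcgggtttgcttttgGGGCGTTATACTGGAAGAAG
A_70_P017021: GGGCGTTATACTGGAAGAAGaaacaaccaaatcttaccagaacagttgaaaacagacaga
The first probe has a GC content of 45.0% and the second 40.0%. The probes read as STAT5A, A_70_P039386 and A_70_P039387, lie on NM_001009402 at bases 2690 to 2749 and 2689 to 2748 and share 59 bases, so they are close to a repeat of 1 measurement. The RefSeq table of the ARS-UI_Ramb_v3.0 assembly lists MGF, an old name of the KIT ligand, as a synonym of both KITLG and STAT5A. The array files call KITLG unmapped and name no genome build, so no genome position is given. Of 704 probes named by accession, 5 probes of 3 genes had a file name that is now the symbol of another gene.

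KITLG was higher in hypoxia than in control fetuses on both probes. The first probe, A_70_P017022, is the brighter over the 7 arrays and stands for the gene below. Its processed signal, the background-subtracted brightness on a linear scale, was 332, 381 and 410.3 in hypoxia replicates 1 to 3. In control replicates 1 to 4 it was 142, 129.7, 156 and 100.5. The scanner software's own error on these spots ran from 33.6 to 41.3 in hypoxia and from 10.7 to 16.1 in control. The group means were 374 ± 39.4 (SD, n = 3) and 132 ± 23.5 (SD, n = 4).

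Arrays differ in brightness, so levels were compared as log2 processed signal minus the 75th percentile of the same array; a negative level is below that percentile. On this scale the KITLG probe stood at -2.97, -2.53 and -2.52 in hypoxia and at -3.86, -3.96, -4.22 and -4.56 in control. Hypoxia replicates 2 and 3 were nearly equal and replicate 1 the lowest of its group, while control replicate 4 was the lowest of all 7. The groups did not overlap, with a gap of 0.90 between the lowest hypoxia and the highest control array. Groups without overlap were common in this comparison, at 16.2% of the 12711 probes tested, with hypoxia the higher group for 8.76% and the lower for 7.46%; nothing is read from this, as the gene was chosen on the same contrast. Mean levels were -2.67 (SD 0.26, n = 3) and -4.15 (SD 0.31, n = 4). The difference was 1.48 (SE 0.20) on the log2 scale, or 2.79-fold, with 2.43 and 3.21 as the folds at 1 SE to either side. Of all tested probes, 114 had a larger difference in either direction and 76 had a larger rise. In whole tissue, a change in the number of cells of a type and a change in RNA per cell cannot be told apart.

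**Figure D1:**
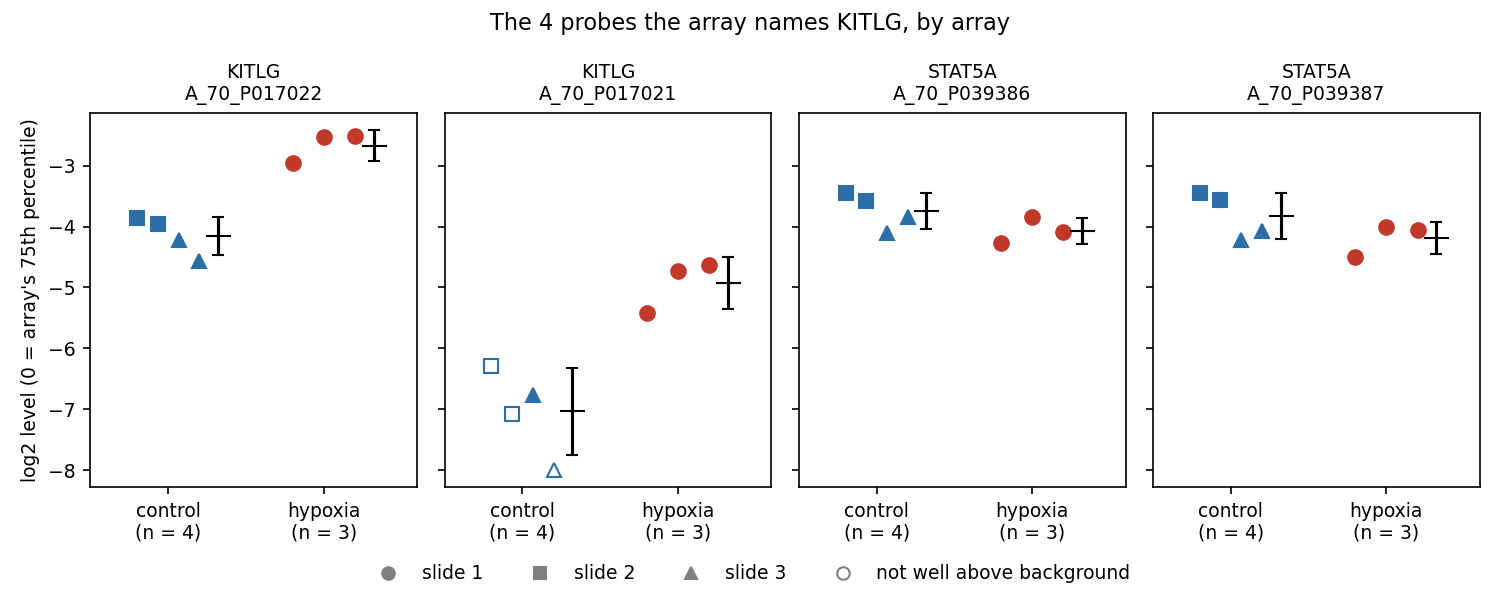
Log2 level of each of the 4 probes that the array files name KITLG, 1 point per array, with group means and SD as black bars; the marker shape gives the slide and open points are not well above background. On both KITLG probes every hypoxia array lies above every control array, while on both STAT5A probes the groups overlap on this scale.

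The second KITLG probe, A_70_P017021, was dim. Its processed signal was 60.5, 83.0 and 95.1 in hypoxia and 26.3, 15.0, 26.8 and 9.29 in control. It was well above background in 3 of 3 hypoxia arrays but in 1 of 4 control arrays, control replicate 3. Its levels were -5.42, -4.73 and -4.63 in hypoxia against -6.30, -7.07, -6.76 and -8.00 in control, with means of -4.93 (SD 0.43, n = 3) and -7.03 (SD 0.72, n = 4). These groups did not overlap either, and hypoxia replicate 1 and control replicate 4 were again the lowest of their groups. The measured difference was 2.11 (SE 0.40) on the log2 scale. The probe passed the filter through the hypoxia arrays, and most control spots were near the limit of the array, so the size of this difference is uncertain. With normexp background correction in place of the scanner software's, the log2 difference was 0.67 (1.59-fold), and 0.52 (1.43-fold) with quantile normalization as well, while the first probe gave 1.09 and 1.02.

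The uncorrected brightness of the spots shows the same order with smaller folds. The mean pixel signal of the first probe ranged from 359 to 427 in hypoxia and from 151 to 202 in control, a ratio of group means of 2.11, over a local background of 51.0 to 66.0. For the second probe it ranged from 132 to 159 in hypoxia and from 81.9 to 104 in control, a ratio of 1.53, over a local background of 54.0 to 69.0. The local background itself was not higher in hypoxia, with a ratio of group means of 0.96 around the first probe and 0.94 around the second.

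**Figure D2:**
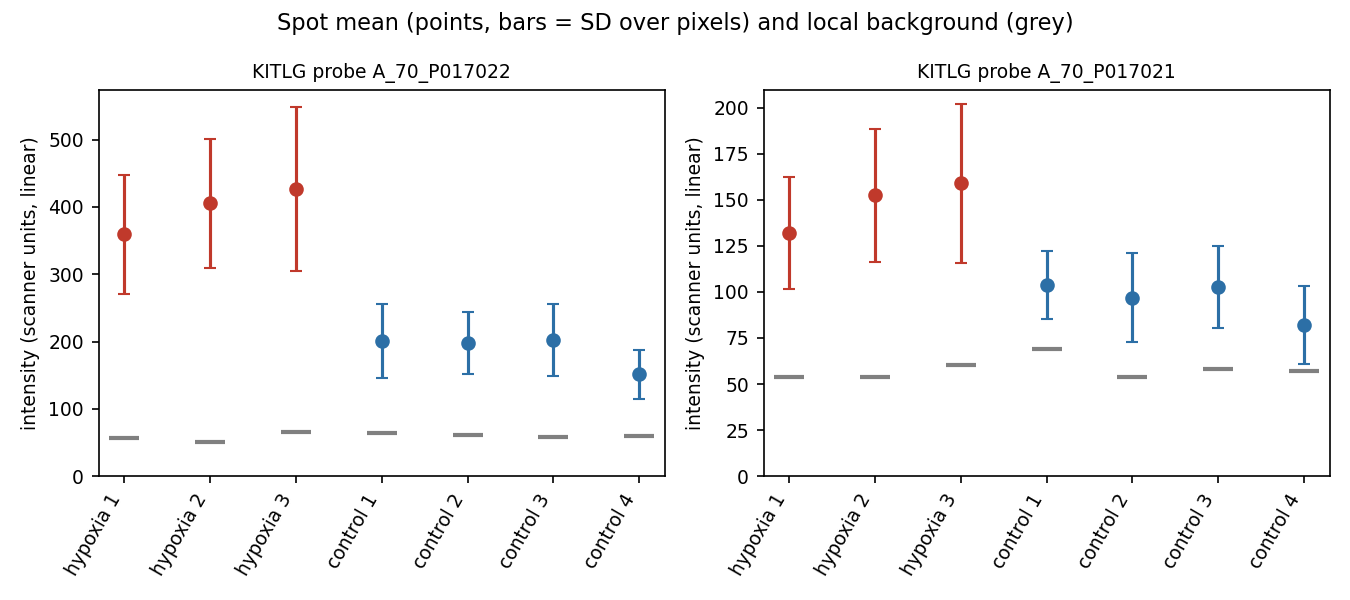
Mean pixel intensity of the spot of each KITLG probe on each of the 7 arrays (points, linear scanner units, bars are the SD over the spot's pixels), with the local background as grey dashes. Hypoxia spots are the brighter on both probes, and control spots of the second probe lie close to their background.

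The 2 KITLG probes moved together over the arrays, with a Pearson r of 0.97 over the 7 arrays and 0.89 for the deviations from the group means. These values are a description: the probes share 20 bases and the same hybridisations. The level gap between them was 2.11 to 2.46 in hypoxia and 2.43 to 3.44 in control, the widest in control replicate 4, the dimmest array for both.

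All 3 hypoxia arrays were on slide 1, control replicates 1 and 2 on slide 2 and control replicates 3 and 4 on slide 3, so group and slide cannot be told apart. Between the 2 control slides the KITLG level was -3.91 on slide 2 and -4.39 on slide 3, a difference of -0.48. Against slide 2 alone the hypoxia difference was 1.24, and against slide 3 alone 1.72. For the second probe the slides differed by -0.70, and the hypoxia differences were 1.76 against slide 2 and 2.45 against slide 3. Control replicate 4, on slide 3, also stood apart in PRL, the pituitary hormone prolactin, a gene singled out after its values were seen. The PRL level was 1.13 there and between -5.14 and -3.46 on the other 6 arrays. Without control replicate 4 the KITLG difference was 1.34 on the first probe and 1.78 on the second.

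**Figure D3:**
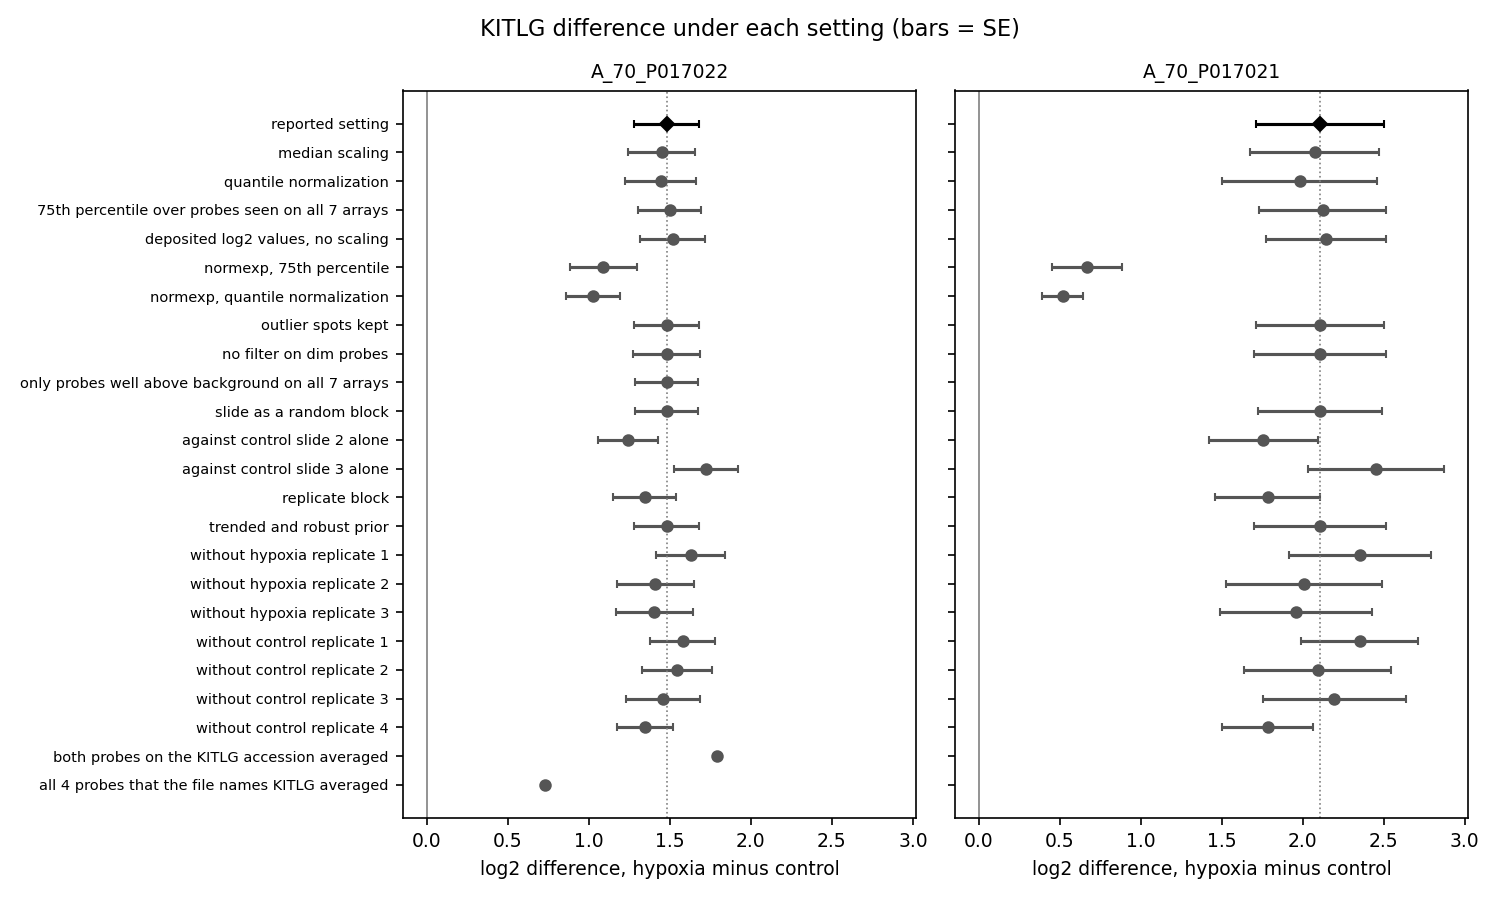
Hypoxia minus control difference of each KITLG probe on the log2 scale under the reported setting (diamond) and each other setting (circles), with SE where a model was fitted; the dotted line is the reported value. Every difference is above 0, and the normexp settings and the average over all 4 probes give the smallest values.

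Next to KITLG in order of p-value among named genes came CD247, a signalling chain of the T cell receptor, and PADI3, an enzyme that converts arginine to citrulline in proteins. CD247 differed by 1.17 (SE 0.17) with an adjusted p of 0.0887 (limma, Benjamini-Hochberg adjustment over 12711 probes, threshold 0.05). PADI3 was not well above background on any hypoxia array and on 3 of 4 control arrays, so for the processed signal only a bound can be given: at least 1.66-fold lower in hypoxia, with measured mean levels of -7.36 and -6.40 and an adjusted p of 0.109. With normexp correction the PADI3 difference was smaller than that bound, at -0.15, and -0.31 with quantile normalization as well. Of all tested probes 2, or 0.0157%, passed the adjusted threshold, and 1990, or 15.7%, had an unadjusted p under 0.05, 8.75% higher and 6.91% lower in hypoxia.

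On the probes read as STAT5A the groups overlapped in scaled level. STAT5A is a transcription factor that KIT and many cytokine receptors activate. On A_70_P039386 the levels were -4.27, -3.85 and -4.09 in hypoxia and -3.45, -3.58, -4.11 and -3.84 in control. On A_70_P039387 they were -4.50, -4.00 and -4.06 in hypoxia and -3.46, -3.57, -4.22 and -4.07 in control. In processed signal, which is not scaled between arrays, the groups did not overlap, with hypoxia the lower. It was 134.2 to 152.9 in hypoxia and 165.2 to 188.2 in control on A_70_P039386. On A_70_P039387 it was 114.8 to 140.7 and 141.2 to 187.7. In scaled level the 2 arrays of control slide 2 were the highest on both probes, and the hypoxia arrays overlapped with those of slide 3. The differences were -0.32 (SE 0.19, adjusted p = 0.429) and -0.36 (SE 0.23, adjusted p = 0.462), neither past the threshold. All 7 arrays were well above background on both. Averaging levels by the file's name, over all 4 probes, would give a KITLG difference of 0.73, with means of -3.96 (SD 0.28, n = 3) and -4.69 (SD 0.37, n = 4). Over the 2 KITLG probes alone it was 1.79, with means of -3.80 (SD 0.34, n = 3) and -5.59 (SD 0.50, n = 4).

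KIT, the receptor, was measured by a single dim probe. Its levels were -7.28, -6.36 and -6.89 in hypoxia and -7.03, -6.14, -6.79 and -7.22 in control, well above background on 2 of 3 and 3 of 4 arrays. The groups overlapped almost wholly, and the difference was -0.05 (SE 0.30, adjusted p = 0.955). Its sign turned in 4 of the other settings, so no direction is given for KIT.

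Of 68 genes listed for KIT signalling, 10 were among the named probes and tested: KIT, the kinase LCK, AKT1, BAD, SPRY2, STAT5A, BCL2, BCL2L1, MCL1 and MYC. None passed the adjusted threshold in limma, and 1 had an unadjusted p under 0.05, against 15.7% of all probes. Of the 10, 2 were higher and 8 lower in hypoxia, with a median difference of -0.06 beside 0.03 for all tested probes. That member was MYC, a transcription factor of growth and division, whose level ranged from -0.34 to -0.08 in hypoxia and from 0.00 to 0.28 in control. Its groups did not overlap, and its difference was -0.37 (SE 0.12, adjusted p = 0.235) on this probe and -0.33 on its other. AKT1, the kinase that carries survival signals from PI3K, differed by -0.17 (SE 0.16, adjusted p = 0.620). Of the survival genes of the BCL2 family, MCL1 had probes that disagreed, at -0.05 and 0.97. KIT signalling acts largely through phosphorylation, which these arrays do not measure.

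Proteases that can release soluble KITLG, and inhibitors of such proteases, came next. Of 14 listed, 6 were tested, 3 higher and 3 lower, and none passed the adjusted threshold in limma. TIMP1, an inhibitor of matrix metalloproteases, was the 1 member of the 6 with an unadjusted p under 0.05, against 15.7% of all tested probes. Its levels were 1.91, 2.16 and 2.43 in hypoxia and 2.85, 2.75, 3.01 and 3.04 in control, with no overlap. The difference was -0.74 (SE 0.15, adjusted p = 0.124), and -0.72 on its other probe. TIMP2, a related inhibitor, differed by 0.26 (SE 0.16, adjusted p = 0.446). MMP9, the gelatinase best known for releasing soluble KITLG in bone marrow, differed by 0.80 (SE 0.49, adjusted p = 0.447) but was well above background on 2 of 3 hypoxia and 1 of 4 control arrays. MMP9 was thus not well above background in most fetuses, and under normexp correction its difference was 0.15.

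Ligands of receptors built like KIT were represented by 2 of 11 listed genes. FLT3LG, the ligand of the FLT3 receptor, differed by -0.11 (SE 0.10, adjusted p = 0.619), and PDGFB, a platelet-derived growth factor chain, by 0.09 (SE 0.20, adjusted p = 0.848). The groups overlapped for both.

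Among 25 other haematopoietic growth factors and receptors, 10 were among the named probes and 6 tested, of which 5 were higher and 1 lower. EPO, IL7, CSF2 and CSF3 were not tested because they were well above background on fewer than 3 arrays. None of the 6 passed the adjusted threshold in limma, and 1, IL15, had an unadjusted p under 0.05, against 15.7% of all tested probes. IL15, a cytokine that sustains natural killer and memory T cells, stood at -4.68, -4.20 and -4.19 in hypoxia and at -5.21, -5.08, -4.86 and -4.85 in control. Every hypoxia array was above every control array, and the difference was 0.64 (SE 0.16, adjusted p = 0.180). IL5, an eosinophil growth factor, differed by 0.92 (SE 0.40, adjusted p = 0.322), with 2 of 3 hypoxia and 1 of 4 control arrays well above background. It thus passed the filter mainly through the hypoxia arrays, and its difference was as low as 0.080 in another setting. EPOR, the erythropoietin receptor, differed by 0.24 (SE 0.17, adjusted p = 0.515). The median of the 6 was 0.20, beside 0.03 for all tested probes.

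The hypoxia-inducible factors (HIFs) switch genes on when oxygen falls, and 16 of 36 listed subunits, regulators and targets were tested. Here 6 were higher and 10 lower, with a median difference of -0.08. None passed the adjusted threshold in limma, and 3 of 16 had an unadjusted p under 0.05, 2 higher and 1 lower, near the 15.7% of all tested probes. EDN1, which encodes the vasoconstrictor endothelin 1, had levels of -0.89, 0.14 and -0.50 in hypoxia and of -1.70, -1.55, -1.29 and -2.29 in control. Its groups did not overlap, and its difference of 1.29 (SE 0.30, adjusted p = 0.163) was the largest of the list. CITED2, a HIF target whose protein limits HIF activity, differed by 0.41 (SE 0.09, adjusted p = 0.162), and by 0.40 on its other probe. HK1, a hexokinase, differed by -0.36 (SE 0.12, adjusted p = 0.243). The classical targets VEGFA, SLC2A1 and LDHA had overlapping groups, with differences of -0.06, -0.12 and -0.10. ALDOA, another target, also had overlapping groups, with a difference of 0.24, and 0.34 on its other probe. Of the subunits, HIF1A differed by 0.17, ARNT2 by -0.10, ARNT by 0.78 and EPAS1 by -0.18. The other ARNT probe gave 1.03. EPAS1 had probes that disagreed, the others lying between -0.06 and 0.85.

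Of 11 transcription factors described elsewhere as acting on KITLG, 5 were tested, 4 higher and 1 lower. Their median difference was 0.50, the value of SMAD3, beside 0.03 for all tested probes. None passed the adjusted threshold in limma. Against 15.7% of all tested probes, 1 of the 5 had an unadjusted p under 0.05. That was CREM, a factor of cyclic AMP signalling, at -3.48, -3.55 and -3.63 in hypoxia and -4.23, -3.90, -4.06 and -3.79 in control. The difference of CREM was 0.44 (SE 0.13, adjusted p = 0.215), and 0.28 on its other probe. CEBPB, a factor of inflammatory and acute-phase genes, differed by 0.64 (SE 0.28, adjusted p = 0.330), and SMAD3, which carries TGF-beta signals, by 0.50 (SE 0.34, adjusted p = 0.489). For both the groups overlapped. The SMAD3 probe was dim, well above background on 3 of 3 hypoxia and 2 of 4 control arrays. Its difference ranged from 0.0073 to 0.82 over the other settings. The remaining higher member, IRF1, differed by 0.67 (SE 0.61, adjusted p = 0.610). Its levels were -5.01, -2.23 and -4.48 in hypoxia and between -5.00 and -4.30 in control. Whether any of these acted on KITLG here was not tested.

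**Figure D4:**
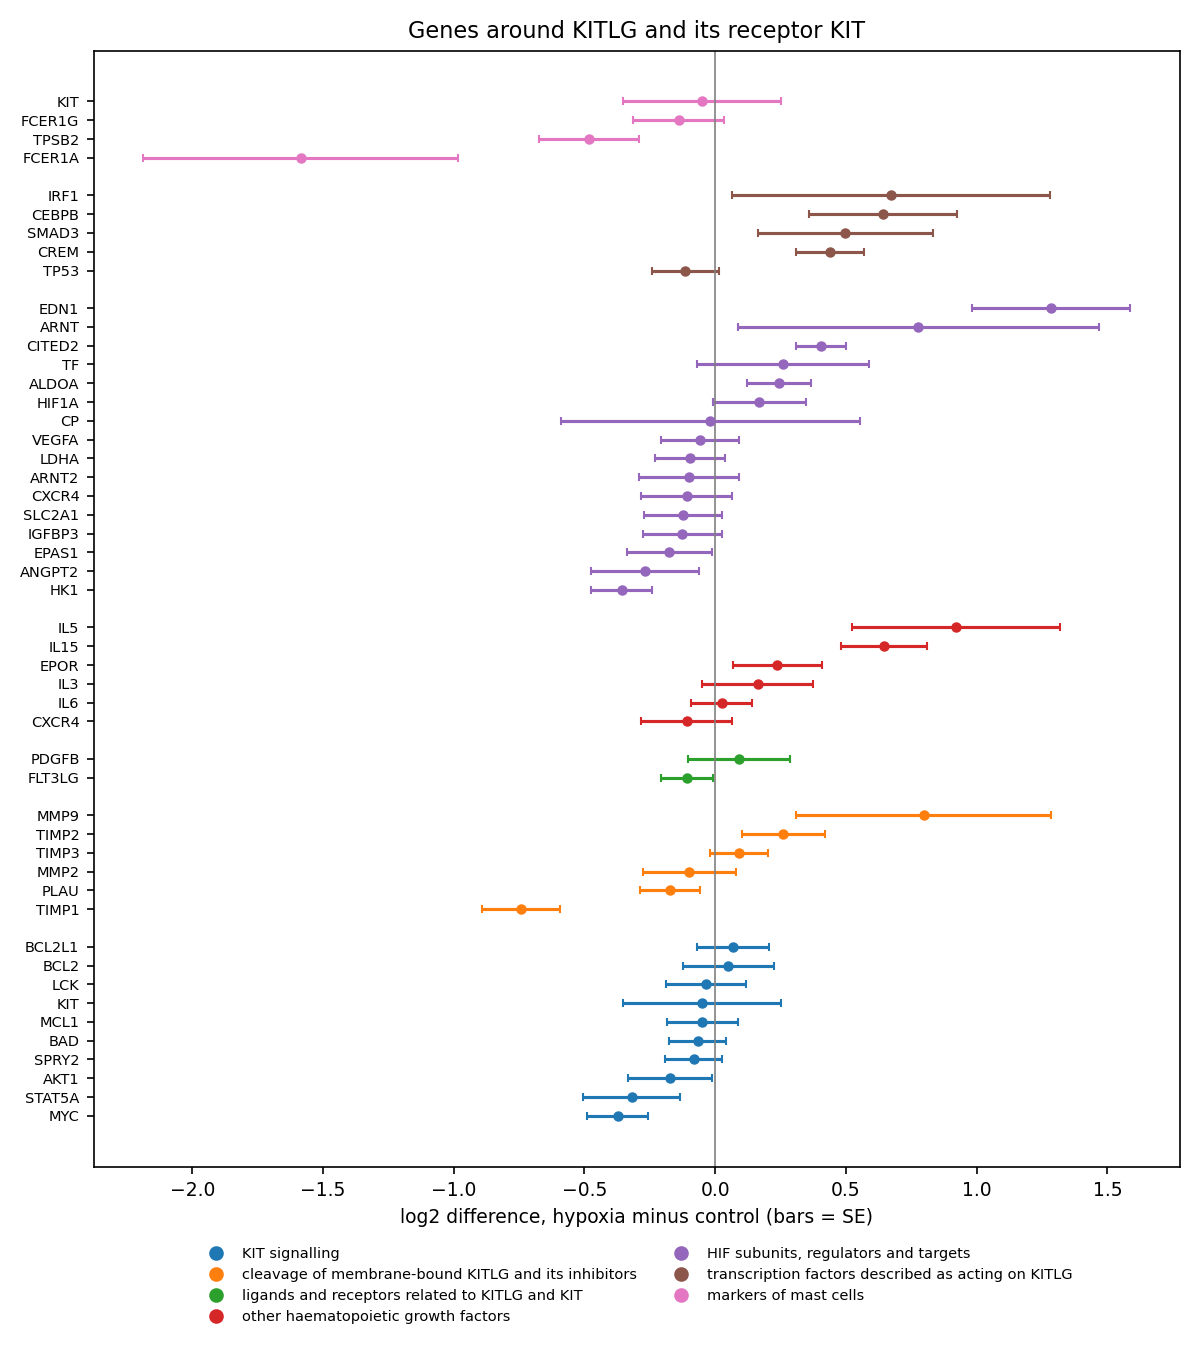
Hypoxia minus control difference (log2 scale, bars are SE) of each tested gene in 7 lists around KITLG and KIT, coloured by list, on the probe of the highest mean level. The 10 KIT signalling genes lie between -0.37 and 0.07, and FCER1A, EDN1 and IL5 lie farthest from 0 among all lists. FCER1A and IL5 were not well above background on every array.

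Markers of cells that carry KIT or make KITLG were read beside these results. Of 18 mast cell genes 5 were among the named probes and 4 tested, with a median difference of -0.31. All 4 had a negative difference, but these count KIT, for which no direction is given. FCER1A and TPSB2 were the 2 at an unadjusted p under 0.05, where 6.91% of all tested probes were lower. FCER1A, a chain of the IgE receptor, stood at -9.48, -8.43 and -6.57 in hypoxia, where 1 of 3 arrays was well above background, and between -6.86 and -6.22 in control. Its difference was -1.59 (SE 0.60, adjusted p = 0.279), and -0.22 under normexp correction. It passed the filter through the control arrays, and leaving out 1 array moved it between -2.38 (without hypoxia replicate 3) and -0.93 (without hypoxia replicate 1). TPSB2, a mast cell tryptase, differed by -0.48 (SE 0.19, adjusted p = 0.295), and FCER1G, a receptor chain that many myeloid cells share, by -0.14 (SE 0.17, adjusted p = 0.719). The summed level of the 4, as multiples of each array's 75th percentile signal, was 0.78 to 0.94 in hypoxia and 0.74 to 1.17 in control. MS4A2, another chain of the IgE receptor, was not tested for want of signal. The 1 melanocyte gene tested, TYR, the first enzyme of melanin synthesis, differed by 0.12.

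Markers of other cell types in the tissue are given beside KITLG in the same way. All 6 tested astrocyte markers, GFAP, AQP4, SLC1A2, SLC1A3, GJA1 and SLC4A4, were higher in hypoxia, with a median difference of 0.46 and 3 at an unadjusted p under 0.05, where 8.75% of all tested probes were higher. Their summed level was 64.5 to 73.8 in hypoxia and 45.6 to 64.8 in control, so the sums overlapped slightly. That sum rests mostly on AQP4, which differed by 0.25 with overlapping groups. All 8 tested markers of meninges and fibroblasts, COL1A2, COL3A1, DCN, IGFBP2, IGF2, VIM, TIMP1 and PTGDS, were lower, with a median of -0.59 and 4 at an unadjusted p under 0.05, where 6.91% of all tested probes were lower. Their summed level was 111 to 140.1 in hypoxia and 146 to 176 in control, so those sums did not overlap. The sum rests mostly on the brightest members, VIM and PTGDS, which differed by -0.49 and -0.04. VIM is not particular to these cells, since astrocytes also make it, and it went the other way from the 6 astrocyte markers. Of 5 endothelial markers, PECAM1, TEK, TIE1 and KDR were lower and FLT1 higher, with a median of -0.29 and 1 at an unadjusted p under 0.05. They had summed levels that overlapped between the groups, from 0.73 upward in hypoxia and from 0.96 to 1.38 in control. FLT1 had probes that disagreed in sign. No marker in these lists passed the adjusted threshold in limma. The part of these cells in the KITLG difference was not tested.

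The neuron list had 1 tested gene, NEFH, a neurofilament protein, at a difference of 0.50 (SE 0.27), and no gene of the oligodendrocyte list was among the named probes. The labelled tissue can therefore be checked only in part against its cell types. Of 11 lymphocyte genes 4 were tested, CD3D, CD3E, CD3G and CD247. These chains of the T cell receptor complex differed by -0.53, -1.08, -0.94 and 1.17, and none passed the adjusted threshold. The groups overlapped for CD3D and CD3G, and the other CD3E probe gave -0.50. CD3G passed the filter mainly through the control arrays, with 1 of 3 hypoxia and 3 of 4 control arrays well above background. CD3E and CD247, whose groups did not overlap on these probes, differed in opposite directions. CD14 and ITGAM, markers of microglia and macrophages, differed by 0.15 and 0.22. The 3 tested erythroid genes had overlapping groups, with HBB, a haemoglobin chain, highest in control replicate 4 at 5.20 and between 2.03 and 4.12 elsewhere. Of 10 pituitary genes 6 were tested, 4 higher and 2 lower, with summed levels of 9.23 to 9.52 in hypoxia and 5.71 to 11.5 in control. These sums rest mostly on LHB and POMC and hide wide spreads within groups. CGA ranged from -4.63 to 0.35 in hypoxia and from -6.47 to 1.39 in control. TSHB, a dim probe, ranged from -7.45 to -3.97 and from -9.09 to -3.16. In both genes hypoxia replicate 2 and control replicate 2 were the lowest of their groups.

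The named genes whose levels tracked the KITLG probe most closely were found by Pearson r over the 7 arrays among 740 named genes well above background on all of them. Since KITLG separates the groups, any gene that does so scores high, and the r of deviations from the group means is given beside each; the points share arrays and slides. Above 0.9 were 8 genes, and below -0.9 were 2. HOMER, named only in the array files, had an r of 0.97 (0.83 for the deviations) and differed by 0.68 between groups. CD247 had 0.97 (0.69), CITED2 0.96 (0.55) and NFAT5, a factor of the response to osmotic stress, 0.96 (0.81). CLC4, again a name from the files, had 0.94 (0.72), and GGCX, the carboxylase of vitamin K-dependent proteins, 0.93 (0.43). Among these 6, HOMER and NFAT5 had the highest r of the deviations and GGCX the lowest. With the deposited values the r was 0.79 for CITED2, 0.82 for CLC4 and 0.72 for GGCX. That of NFAT5 fell as low as 0.79 in another setting, and its group difference from 0.71 to as low as 0.16. The lowest r over all settings was 0.96 for HOMER and 0.94 for CD247.

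At the opposite end stood PSME2, a proteasome activator subunit, with an r of -0.95 (-0.52 for the deviations), and CYBA, a subunit of NADPH oxidase, with -0.91 (-0.01). RPS2, a ribosomal protein, had -0.89 (-0.27) and AQP3, a water and glycerol channel, -0.89 (-0.53). These depended on the processing: the r of RPS2 was -0.52 with the deposited values and that of AQP3, a dim probe, -0.088 with normexp correction. CYBA differed between groups by -0.55 on its probe while its deviations within them had an r near 0.

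**Figure D5:**
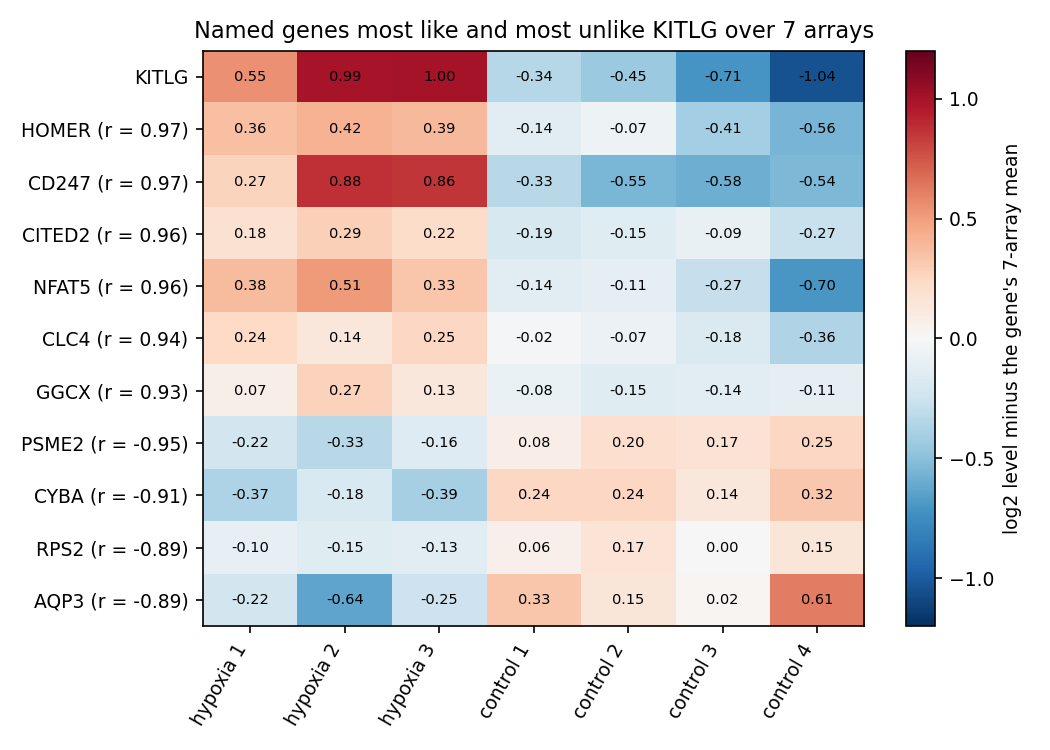
Log2 level of KITLG and of the 6 most like and 4 most unlike named genes on each of the 7 arrays, as the difference from the gene's own mean over the arrays (red above, blue below). In all 11 the hypoxia arrays lie to 1 side of the control arrays, and KITLG has the widest range.

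Over the whole series, the 75th percentile of the processed signal ranged from 2024 to 2908 between arrays, and 83.1 to 84.8% of probes were well above background in hypoxia and 77.2 to 86.4% in control. Nothing in the labels splits a fetus over arrays, so p-values set the group difference against the spread between fetuses within groups. The number of fetuses, 7, limits the precision, and the group difference also carries any difference between slides.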

How the data were processed

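The authors used Agilent Feature Extraction 10.1.1.1, per the file headers, to turn each spot's intensity into a processed signal with the background subtracted and spatial trends removed. The log2 values of the deposited table equal that signal, not scaled between arrays, and served as an alternative. No source used here gives the authors' test.

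A level is the log2 processed signal less the 75th percentile over the array's own non-control spots. Flagged outlier spots (34 probe values) were dropped. Tests covered the 12711 of 15008 probes that 3 or more of the 7 arrays showed well above background. They used limma 3.58.1 (R 4.3.3, lmFit and eBayes, 2-sided, Benjamini-Hochberg threshold 0.05). The procedure was also run on simulated levels, which held no slide effect and so cannot speak to one here. The fold of PADI3 uses a bound for hypoxia and measured values for control. Each hypoxia array took the probe's own signal or, if higher, the lowest signal well above background there.

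RefSeq gave names by accession (704 probes), gene ID (125), symbol (484), synonym (20) or older name (122), while 106 kept the file's name, 36 had a locus number and 13411 stayed unnamed. An item of the KIT signalling list is not reported here. A gene's probe is that of the highest mean level. KITLG and all lists were chosen with earlier results of these data known. By rule the text names KITLG, KIT, the up to 3 members of each list around KITLG with the smallest p, 10 genes by likeness and the 2 next in order of p. Genes named beyond this rule were picked with their values known. Alternatives were other scalings, background corrections, filters, slides and priors, each array left out, and a replicate block. The groups share replicate numbers 1 to 3, which no label ties to a shared origin.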

Additional observations from a re-analysis of the deposited data

How the results depend on the processing

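KITLG stayed higher in hypoxia under every alternative run. Leaving out each array gave 1.34 to 1.63 on the first probe and 1.78 to 2.35 on the second. The first probe gave 1.09 with normexp correction and 1.02 with normexp and quantile normalization, and the second 0.67 and 0.52; the second could not be fitted where probes had to be well above background on all 7 arrays. Averages added after the data were seen gave 1.79 over the 2 KITLG probes and 0.73 over all 4 named KITLG. The control slides differed by -0.12 in KITLG with the deposited values. The number of probes past the adjusted threshold, 2 as reported, was 0 with quantile normalization, a 75th percentile taken over the probes detected on every array, no filter or a replicate block (1946 to 2132 at an unadjusted p under 0.05), 4 against slide 3 alone, 10 with the deposited values and with normexp, 25 with probes seen on all arrays, 35 with normexp and quantile normalization, 57 with a trended and robust prior, 232 against slide 2 alone, and 0 to 6 with an array left out; the causes were not tested. At an unadjusted p under 0.05, 1112 of 1990 probes were higher in hypoxia as reported, 914 of 1946 with quantile normalization and 660 of 981 with the deposited values. KIT turned to 0.062 with normexp, 0.16 against slide 3 alone, and 0.17 without hypoxia replicate 1 or control replicate 2, and ranged from -0.29 to 0.17 with an array left out. PDGFB turned to -0.082 without hypoxia replicate 3, and ranged up to 0.25 with another array left out. Of 796 other values over 42 results, 761 were counted as the same. Of the rest, 27 moved, all of them correlations with KITLG, 3 (all of CD247) passed the threshold and 5 turned. A gene's difference counted as the same if it kept its direction and side of the threshold, whatever its size. That is a loose measure, as no named gene passed as reported. IL5 fell from 0.92 to as low as 0.080, SMAD3 from 0.50 to 0.0073 and NFAT5 from 0.71 to 0.16. Same-numbered arrays had correlated deviations of 0.12, 0.09 and 0.11, each hypoxia array's highest with its own number, a hint from the data only. With a replicate block the KITLG differences were 1.34 and 1.78, both probes past the adjusted threshold were lost, and no call of a named gene changed. Only control has a replicate 4, so the block sets that array aside. These differences therefore equal those without control replicate 4 by construction.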

Other observations

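Beside KITLG, 2 other genes had probes whose file name is now the symbol of a different gene. A pair of probes named SHMT2 carry an accession that RefSeq gives to SHMT1, and a probe named MC1R carries one of MC5R.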
